A study of Mus musculus with 6 samples.

Results

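The miR-26 family was measured in small RNA from brain-derived extracellular vesicles (BDEVs), the membrane particles that cells release, of mice. The members were chosen by name, as the rows that are an arm of miR-26a or miR-26b, and the family was selected on its measured abundance as the largest after let-7. These are 5 of the 1926 miRNA rows of the deposited table, of which 803 were above 0 in at least 1 library. None of the 35 rows that merge several mature names holds a miR-26 arm. The SE-BDEV group holds 3 libraries from mice that went through status epilepticus, a prolonged seizure, and the CON-BDEV group holds 3 libraries from matched controls. All 6 titles carry day 10, and the labels do not state the event it counts from, the seizure model, or the strain, age and sex of the mice. Whether each library is its own animal is not labelled, and p-values then measure only the spread between these libraries, which may be technical.

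A miRNA is cut from a hairpin precursor, whose 5p and 3p arms can each give a mature strand of about the same length. Usually 1 arm, the guide, is loaded into an Argonaute protein and pairs with messenger RNAs through its seed, bases 2 to 8. miR-26 is widely expressed and is abundant in brain, where miR-26a has been linked to neuronal differentiation and dendrite growth. The hairpins sit in genes of small C-terminal domain phosphatases (Ctdsp1, Ctdsp2 and Ctdspl), which REST, a repressor of neuronal genes, recruits in non-neuronal cells. In vesicle RNA, a change in the number of vesicles from a cell type and a change in the miRNA each vesicle carries cannot be told apart.

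All 5 members matched a mature sequence of the RefSeq table (GRCm38.p6). They are shown 5′ to 3′ with the seed in capitals, because the seed sets which of them can pair with the same sites.
mmu-miR-26a-5p: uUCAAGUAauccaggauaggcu
mmu-miR-26b-5p: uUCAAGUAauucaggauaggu
mmu-miR-26a-1-3p: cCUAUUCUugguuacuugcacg
mmu-miR-26a-2-3p: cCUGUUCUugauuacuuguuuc
mmu-miR-26b-3p: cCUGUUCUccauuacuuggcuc
Both 5p arms share the seed UCAAGUA, whose complementary site reads UACUUGA, and no other of the 1679 mature names in that table has this seed. With positions counted from the 5′ end, miR-26b-5p differs from miR-26a-5p by C11U and C21U and ends after 21 bases, 1 base earlier. Over the 21 positions compared, 19 are the same, so the counts of these arms rest on 2 bases and the 3′ end. The 3p arms do not share 1 seed. miR-26a-2-3p and miR-26b-3p have CUGUUCU, a seed found in 4 mature names in all, and miR-26a-1-3p has CUAUUCU, found in it alone, the seed of the other 2 differing from it by A4G.

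The hairpins are printed with the mature arms in capitals, to show that 2 of them hold the same 5p arm while each has a 3p arm of its own.
Mir26a-1: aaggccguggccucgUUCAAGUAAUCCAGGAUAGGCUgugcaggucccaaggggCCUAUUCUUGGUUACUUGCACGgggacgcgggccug
Mir26a-2: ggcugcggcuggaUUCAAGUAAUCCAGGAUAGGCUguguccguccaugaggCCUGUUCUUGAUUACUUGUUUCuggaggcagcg
Mir26b: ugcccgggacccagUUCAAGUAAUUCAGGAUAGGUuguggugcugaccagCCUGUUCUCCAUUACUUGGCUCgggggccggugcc
In RefSeq (GRCm38.p6) Mir26a-1 lies at chr9:119031796-119031885, Mir26a-2 at chr10:126995530-126995613 and Mir26b at chr1:74394310-74394394, all on the + strand. The deposited values carry no coordinates, and the submitters' processing notes name another build, mm9. In GENCODE M21 (GRCm38), Mir26a-1 lies in an intron of Ctdspl in all 3 transcripts that span it, and Mir26b in an intron of Ctdsp1 in both transcripts that span it. Mir26a-2 lies in an intron of 1 Ctdsp2 transcript and overlaps an exon of 2 others. A read of miR-26a-5p can therefore come from Ctdspl or from Ctdsp2, and only the 3p reads tell these hairpins apart.

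The 5p arms are poor in G and C. miR-26b-5p has 33.3% G and C and miR-26a-5p 40.9%, against a median of 52.2% over the 1679 mature names, and 4.41% of the names are at or below miR-26b-5p. The short motifs GGAG and CCCU, described elsewhere in miRNAs sorted into vesicles, were searched on the mature strand as printed. Neither occurs in any of the 5 members. GGAG occurs in 14.2% of all mature names and CCCU in 11.4%, and in 15.9% and 6.59% of the 258 tested miRNAs with a sequence.

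The libraries held 4400167 to 9391887 reads assigned to miRNAs, taken from the step between the deposited values. These values are RPM, reads per 1000000 assigned reads. A value of 3 reads, used below as the floor, is 0.319 to 0.682 RPM, and such floors and the binomial intervals below cover counting error only. Neuronal miRNAs were present in every library, with a summed level of the 5 listed markers of 23056 to 41368 RPM. Of the 3 erythrocyte markers, miR-144-3p and miR-451a were at 0 in every library, and miR-486a-5p, in a row merged with miR-486b-5p, was at 83.6 to 199 RPM in CON-BDEV and 102 to 111 RPM in SE-BDEV. Of the 3 oligodendrocyte markers, miR-219a-5p was at 0 throughout, while miR-338-3p and miR-219a-2-3p were present in all libraries, and the list summed to 137 to 170 RPM in CON-BDEV and 198 to 296 RPM in SE-BDEV. The 2 libraries numbered 3 stood apart on the first principal component (42.5% of the variance), at 8.01 and 10.7 against -7.59 to -2.01 for the others. miR-24, summed by name, was at 0.354% of reads in CON-BDEV 3 and 0.313% in SE-BDEV 3, against 0 to 0.000661% in the others. Its part in this component was not tested.

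By its abundance, which chose the family, miR-26 made up 1.72% ± 0.324 of miRNA reads in the controls and 2.32% ± 0.515 after status epilepticus (SD, n = 3). The let-7 family with miR-98 took 80.5% ± 1.26 and 78.8% ± 2.72 (SD, n = 3). miR-26 was second of the 24 families summed by name in 5 libraries. In CON-BDEV 1 it ranked 3, at 1.38% against 1.44% for miR-191. Within that list of 24, the largest after miR-26 over both groups were miR-191 at 1.49%, the miR-15 and miR-16 family at 0.999%, miR-125 at 0.955% and miR-127 at 0.879%. miR-382-5p, which is in none of them, held 1.17% by itself. Summed by seed over the 1637 rows with a RefSeq sequence, which hold 92.8% of RPM, the UCAAGUA pair was second as well, at 2.02%. Next came the seed of miR-191-5p at 1.49% and then that of miR-382-5p.

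**Figure D1:**
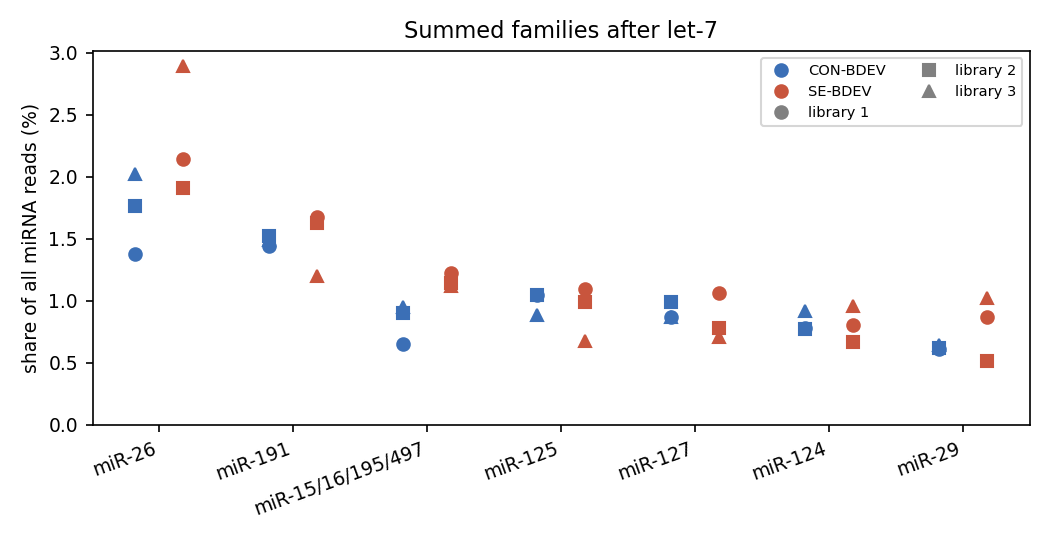
Share of all miRNA reads (%, vertical axis) of the 7 largest after let-7 among the 24 families summed by name (miR-382 is not among them), with 1 point per library (colour for the group, shape for the library number). miR-26 ranges from 1.38% to 2.90%, and only in CON-BDEV 1 does miR-191 lie above it.

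Most miR-26 reads, 88.5% to 92.2% over the libraries, came from miR-26a-5p, the guide arm of 2 hairpins. It stood at 12681, 15915 and 18678 RPM in CON-BDEV 1, 2 and 3, and at 19521, 16931 and 26278 RPM in SE-BDEV 1, 2 and 3. SE-BDEV 2 lay below CON-BDEV 3, so the groups overlapped, and both libraries numbered 3 were the highest of their group. The arm ranked ninth among all rows in 5 libraries, behind 8 let-7 rows, and 11 in CON-BDEV 1, where miR-191-5p and miR-382-5p lay above it. Over the 6 libraries its neighbours in rank were let-7i-5p at a mean of 27164 RPM and miR-191-5p at 14926 RPM. Its own mean was 18334 RPM. The range of miR-26a-5p over libraries overlapped that of let-7i-5p (20771 to 36229 RPM) and that of miR-191-5p (12000 to 16792 RPM).

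miR-26b-5p, the guide arm of the Ctdsp1 hairpin with the same seed, was the second member by level. It stood at 1133, 1726 and 1584 RPM in CON-BDEV 1, 2 and 3, and at 1933, 2207 and 2704 RPM in SE-BDEV 1, 2 and 3. Every SE-BDEV library was above every control here. It ranked between 32 and 42 in single libraries and 35 by its mean of 1881 RPM, next to miR-99b-5p at 1886 RPM and miR-149-5p at 1523 RPM. The ranges of these neighbours, 1497 to 2358 and 1230 to 1836 RPM, overlapped that of miR-26b-5p.

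The 3p arms, the strands that are mostly discarded, were at the edge of detection. miR-26a-1-3p, which marks the Ctdspl hairpin, was listed at 2.09 RPM in CON-BDEV 2 (17 reads), 0.608 RPM in CON-BDEV 3 (4 reads) and 1.19 RPM in SE-BDEV 3 (8 reads), and at 0 in the other 3 libraries. miR-26a-2-3p, which marks the Ctdsp2 hairpin, was listed at 1.10 RPM in CON-BDEV 2 (9 reads), 1.22 RPM in CON-BDEV 3 (8 reads), 1.49 RPM in SE-BDEV 1 (14 reads) and 0.593 RPM in SE-BDEV 3 (4 reads), and at 0 in CON-BDEV 1 and SE-BDEV 2. Both miR-26a hairpins thus had listed 3p reads in CON-BDEV 2, CON-BDEV 3 and SE-BDEV 3. miR-26b-3p was listed at 1.67 RPM in CON-BDEV 3 (11 reads) and 1.48 RPM in SE-BDEV 3 (10 reads), and at 0 in the 4 libraries not numbered 3. The libraries with no 3p read of any miR-26 hairpin, CON-BDEV 1 and SE-BDEV 2, were the 2 shallowest, at 4400167 and 4996073 reads. miR-26b-3p was also at 0 in the deeper SE-BDEV 1 (9391887 reads) and CON-BDEV 2 (8147118 reads). No library lists a single read, so a 0 may also stand for 1 read, and no difference between groups was detectable for these arms at this depth.

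**Figure D2:**
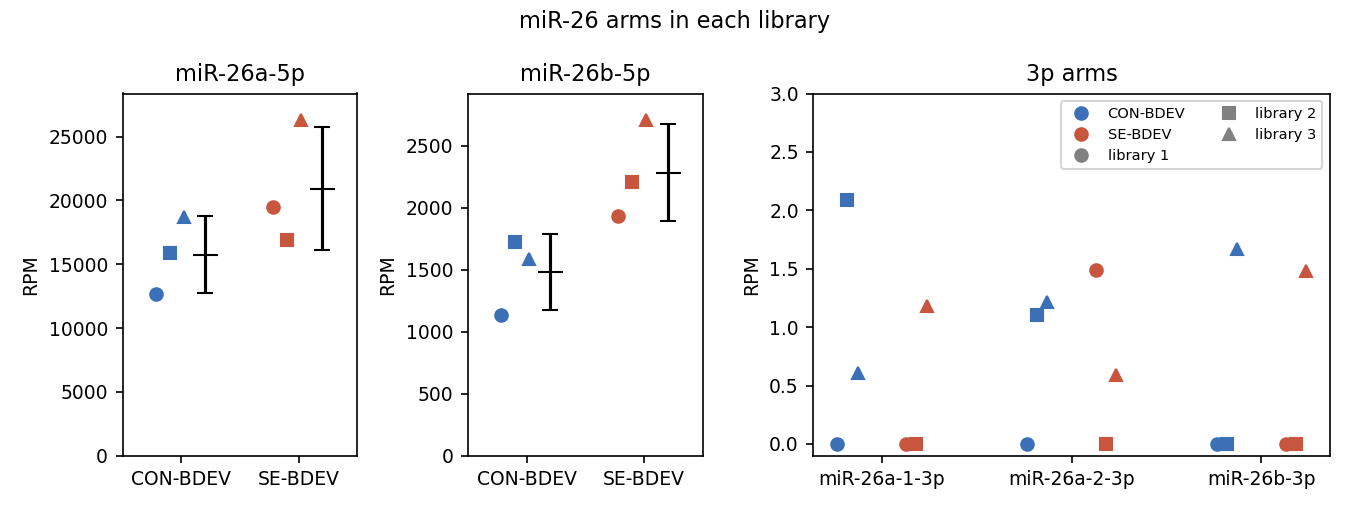
RPM (vertical axes, each from 0 for the guide arms) of the 5 miR-26 arms, with 1 point per library and, for the guide arms, the mean ± SD of 3 libraries in black. The miR-26a-5p groups overlap at SE-BDEV 2 (16931 RPM) and CON-BDEV 3 (18678 RPM), the miR-26b-5p groups do not, and the 3p arms stay at or under 2.09 RPM.

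The question the design puts is whether vesicle miRNAs differ after status epilepticus. miR-26b-5p went from 1481 ± 310 to 2281 ± 391 RPM (SD, n = 3) and miR-26a-5p from 15758 ± 3001 to 20910 ± 4826 RPM (SD, n = 3), and neither passed the test. The fit was limma on log2(RPM + 1), two-sided, over the 308 miRNAs averaging at least 10 RPM, with p adjusted over all of them (Benjamini-Hochberg) and a call at an adjusted p under 0.05. For miR-26b-5p the log2 difference was 0.63 ± 0.26 (SE, 95% interval 0.0726 to 1.19, limma unadjusted p = 0.0297, adjusted p = 0.438), in 3 of 3 SE-BDEV libraries above every control. For miR-26a-5p the log2 difference was 0.40 ± 0.20 (SE, 95% interval -0.0333 to 0.84, limma unadjusted p = 0.0674, adjusted p = 0.438), with 2 of 3 SE-BDEV libraries above every control. Between libraries of the same number, the log2 differences were 0.62, 0.0893 and 0.49 for miR-26a-5p and 0.77, 0.35 and 0.77 for miR-26b-5p. For miR-26b-5p their direction was fixed, since its groups do not overlap and any matching of libraries gives it. How many of all tested miRNAs are higher in every such comparison was not counted. With the number as a block the 95% interval was 0.0803 to 0.72 for miR-26a-5p and 0.0570 to 1.21 for miR-26b-5p (limma adjusted p = 0.153 and 0.224). The labels do not state that equal numbers mark pairs. Deviations from the group means correlated between same-numbered libraries at 0.216, 0.202 and 0.462. Without miR-24-3p these correlations were -0.064, -0.061 and -0.081, so pairing is not established.

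These counts have to be read against all tested miRNAs. Of the 308, 0.974% (3 miRNAs, all higher: miR-142a-5p, miR-21a-5p, miR-155-5p) were called, against 0 of the 2 tested members. Blocking on the replicate number gave 10 calls, and without CON-BDEV 2 there were 8, in both cases with neither member. Of the 308, 8.12% had a limma unadjusted p under 0.05 and a higher value in SE-BDEV, against 1 of the 2 members. For 10.7% every SE-BDEV library was above every control, against 1 of the 2 members. The median log2 difference of the 2 tested members was 0.52, beside 0.0606 over the 308, and 63 of the 308 had a larger log2 difference than miR-26a-5p and 33 a larger one than miR-26b-5p. Among the 47 miRNAs averaging at least 1000 RPM the median log2 difference was 0.11, with 32 higher in SE-BDEV. For 7 of these 47, miR-26b-5p among them, every SE-BDEV library was above every control. Of these 47, 2 had a larger log2 difference than miR-26b-5p, namely miR-335-5p at 0.73 and miR-9-3p at 0.67, and 10 had a larger one than miR-26a-5p.

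**Figure D3:**
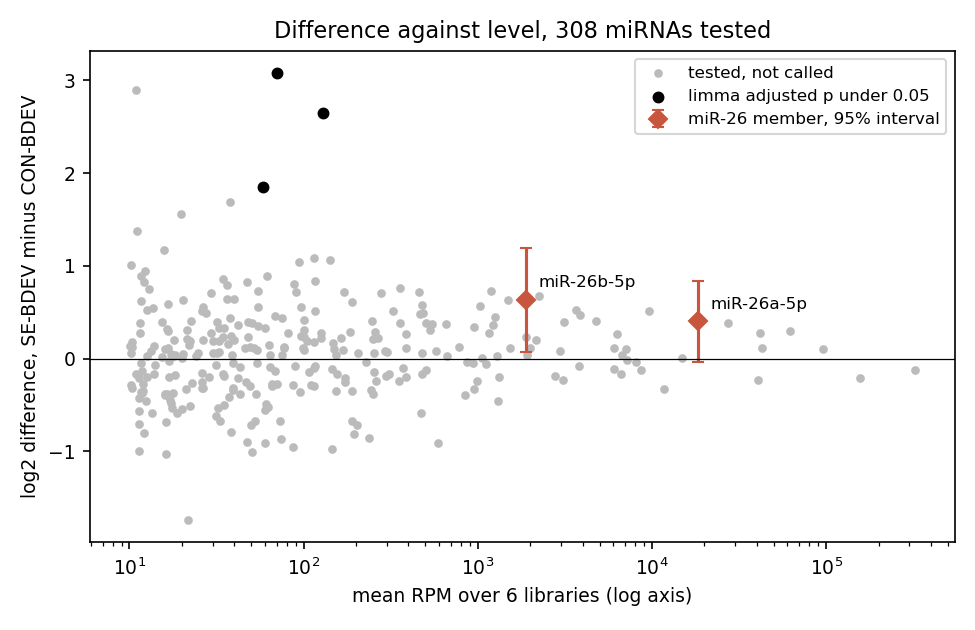
Log2 difference between SE-BDEV and CON-BDEV (vertical axis) against mean RPM over 6 libraries (horizontal log axis) for the 308 tested miRNAs, with the 3 called ones in black and 95% limma intervals for the miR-26 members. miR-26b-5p at 0.63 and miR-26a-5p at 0.40 lie above most miRNAs of similar level, and the interval of miR-26a-5p spans 0.

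The 3 other members had means of at most 0.734 RPM and did not enter that test. With no filter their log2 differences were -0.39 for miR-26a-1-3p (95% interval -1.77 to 0.98), -0.0779 for miR-26a-2-3p (-1.49 to 1.34) and -0.0356 for miR-26b-3p (-1.31 to 1.24). Each interval spans 0. On a log2(RPM + 1) scale these differences understate any change of such low values.

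The authors' deposited table gave the same direction for each of the 5 members. In it, miR-26b-5p had a log2 fold change of 0.53 ± 0.28 (SE, adjusted p = 0.598) and miR-26a-5p one of 0.32 ± 0.24 (SE, adjusted p = 0.750). Its adjusted p was under 0.05 for 1.12% of the 625 miRNAs with one, and for no member. In the authors' deposited table miR-26a-1-3p stood at -1.46 ± 3.03, miR-26a-2-3p at -0.33 ± 2.25 and miR-26b-3p at -0.22 ± 3.78 (SE), the last without an adjusted p.

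How far the groups separated depended on the total to which reads were scaled. As a share of the reads outside let-7, miR-26b-5p stood at 0.609%, 0.910% and 0.756% in CON-BDEV 1, 2 and 3 and at 0.882%, 1.22% and 1.15% in SE-BDEV 1, 2 and 3. On this scale SE-BDEV 1 lay below CON-BDEV 2, so the groups overlapped. miR-26a-5p was at 6.82%, 8.39% and 8.91% in CON-BDEV 1, 2 and 3 and at 8.90%, 9.33% and 11.2% in SE-BDEV 1, 2 and 3, an overlap of SE-BDEV 1 with CON-BDEV 3. The summed family took 7.43%, 9.30% and 9.67% of the reads outside let-7 in CON-BDEV and 9.78%, 10.5% and 12.4% in SE-BDEV. These 2 sets of 3 did not overlap, by the narrow margin of 9.67% against 9.78%, while as a share of all reads they did. How many other families or miRNAs separate on the scale without let-7 was not counted, so this is not a result about miR-26. With median-of-ratios scaling, in which the median miRNA is held level between libraries, 1 of 3 SE-BDEV values of miR-26a-5p and 2 of 3 of miR-26b-5p lay above every control.

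The log2 difference of miR-26a-5p was 0.33 with median-of-ratios scaling and 0.29 with the total without let-7, and that of miR-26b-5p 0.56 and 0.52. Leaving let-7 out of the total moved the median over all 308 miRNAs from 0.0606 to -0.0469, and the share with a higher value in SE-BDEV from 57.5% to 44.2% (49.0% with median-of-ratios scaling). Relative to these medians both members stayed on the higher side. The let-7 share itself differed between libraries beside miR-26: it was lowest, 76.6%, in SE-BDEV 3, where miR-26a-5p and miR-26b-5p were highest. It was 81.4% in CON-BDEV 1, where both were lowest, and 81.8% in SE-BDEV 2. The part of the let-7 share in the miR-26 values was not tested beyond this rescaling.

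Single libraries carried much of the miR-26a-5p difference. It was 0.22 without SE-BDEV 3 and 0.25 without CON-BDEV 1, which is also the shallowest library. miR-26b-5p was at 0.50 and 0.45 without the same libraries. Without both libraries numbered 3 the log2 differences were 0.36 for miR-26a-5p and 0.56 for miR-26b-5p (limma adjusted p = 0.580 and 0.581).

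**Figure D4:**
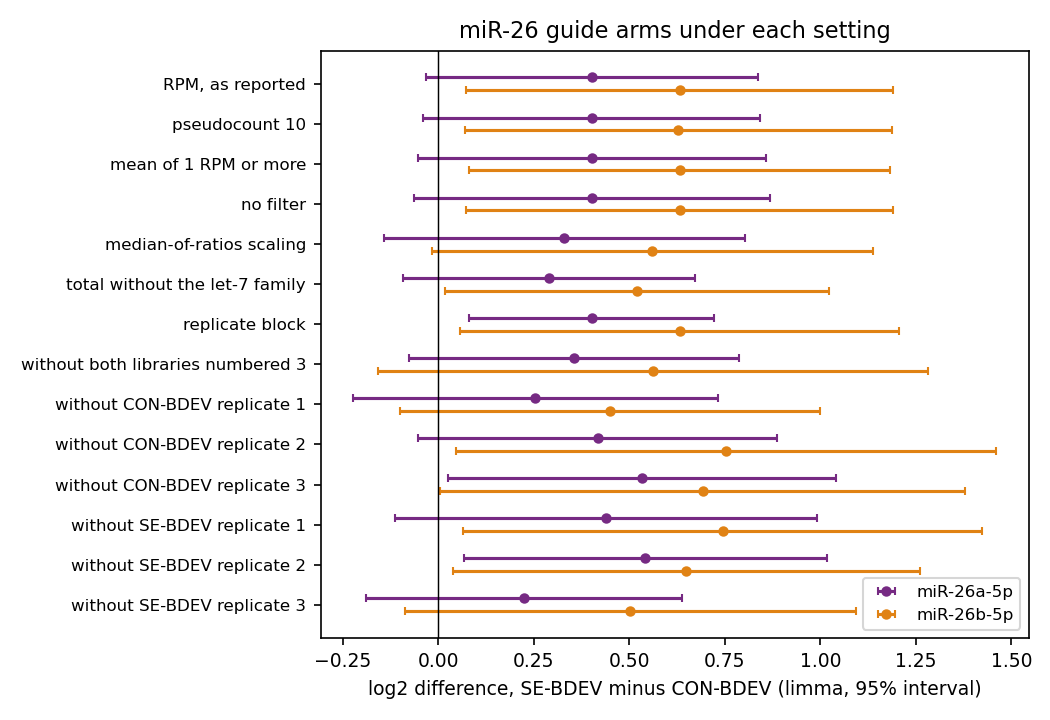
Log2 difference between SE-BDEV and CON-BDEV (horizontal axis, limma, bars for the 95% interval) of miR-26a-5p and miR-26b-5p under each setting (rows). All values are above 0, from 0.22 to 0.54 for miR-26a-5p and from 0.45 to 0.75 for miR-26b-5p, and many intervals cross 0.

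The ratio of the 2 guide arms does not depend on any scaling. miR-26a-5p was 11.2, 9.22 and 11.8 times miR-26b-5p in CON-BDEV 1, 2 and 3, and 10.1, 7.67 and 9.72 times in SE-BDEV 1, 2 and 3. The lowest ratio was in SE-BDEV 2, and the other SE-BDEV ratios lay between those of the controls, so the groups overlapped. The mean log2 ratio was 3.42 ± 0.19 in the controls and 3.18 ± 0.21 after status epilepticus (SD, n = 3), a difference of -0.23 (two-sided exact permutation p = 0.3, adjusted p = 0.4 over 3 ratios, smallest possible p 0.1). A difference between miR-26a-5p and miR-26b-5p in their change was thus not detectable with 3 libraries a group. The difference in the log2 ratio was -0.11 without SE-BDEV 2. Of the family's reads, miR-26b-5p made up 8.60% ± 1.04 in the controls and 9.96% ± 1.37 after status epilepticus (SD, n = 3).

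The guide arms outnumbered the 3p arms by 3 to 4 orders of magnitude. In CON-BDEV 3 and SE-BDEV 3, miR-26b-5p was 948 and 1825 times miR-26b-3p, whose share of both arms was 0.105% (exact Clopper-Pearson 95% interval 0.0526 to 0.189%) and 0.0548% (0.0263 to 0.101%). These 2 intervals overlap. In the other libraries, against the floor of 3 reads, miR-26b-5p was at least 1662-fold higher in CON-BDEV 1, 4688-fold in CON-BDEV 2, 6053-fold in SE-BDEV 1 and 3675-fold in SE-BDEV 2. The share in CON-BDEV 3 lies above the limit that a count of 0 allows, at the floor of 3 reads, in each of these 4 libraries. The limits are 0.0602% and 0.0213% in CON-BDEV 1 and 2 and 0.0165% and 0.0272% in SE-BDEV 1 and 2. The share in SE-BDEV 3 lies below the limit in CON-BDEV 1. By exact 95% intervals, CON-BDEV 3 overlaps CON-BDEV 1 (0 to 0.0740%), and SE-BDEV 3 overlaps CON-BDEV 1 and SE-BDEV 2 (0 to 0.0335%). The limits and the intervals from 0 take a listed 0 as no read, although no library lists a single read.

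miR-26a-5p was 4987 and 10239 times the sum of its 3p arms in CON-BDEV 2 and 3, and 13095 and 14781 times in SE-BDEV 1 and 3. It was at least 18600-fold higher in CON-BDEV 1 and at least 28197-fold in SE-BDEV 2. On the log2 scale with a pseudocount of 1, the 5p to 3p ratio differed between SE-BDEV and CON-BDEV by 0.67 for miR-26b and by 0.66 for miR-26a (exact permutation p = 0.3 and 0.4, adjusted p = 0.4 over 3 ratios for each, smallest possible p 0.1). The 5p arms' own log2 differences were 0.63 and 0.40, and with a pseudocount of 10 the ratio differences were 0.64 and 0.47. Single libraries moved both: the miR-26b value was 0.25 without CON-BDEV 3 and 1.03 without CON-BDEV 2, and the miR-26a value was 1.11 without CON-BDEV 1, 0.24 without CON-BDEV 2 and 0.33 without SE-BDEV 2. Among the 86 hairpins whose arms pair by name and whose larger arm had a mean of 100 RPM or more, the smaller arm held a median of 0.867% of reads. It held 0.0279% for miR-26b, with 20 hairpins lower. For miR-26a, with both 3p arms summed, it held 0.00753%, with 18 hairpins lower, of which 14 had a smaller arm listed at 0 throughout.

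The miRNAs whose level followed the members most closely were found by the distance between profiles, the root mean square difference of log2(RPM + 1) after centring each miRNA on its mean, over the 6 libraries. The 126 candidates averaged at least 100 RPM and were above 0 in all libraries. All of them share the libraries and the scaling to 1 total. The nearest to miR-26a-5p was miR-126a-3p, a miRNA of endothelial cells, at a distance of 0.0457 against a median of 0.36. It was followed by let-7i-5p (0.0833), miR-22-3p (0.12), miR-1839-5p (0.13) and miR-1983 (0.14). The nearest to miR-26b-5p was miR-126a-5p, the other arm of that endothelial hairpin, at 0.0859 against a median of 0.46, followed by miR-98-5p (0.14), let-7f-5p (0.19), miR-16-5p (0.20) and miR-9-3p (0.20). The distance between miR-26a-5p and miR-26b-5p was 0.20, and 19 candidates lay nearer to miR-26a-5p than miR-26b-5p did.

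miR-126a-3p stood at 2571, 3259 and 3893 RPM in CON-BDEV 1, 2 and 3, and at 4362, 3572 and 5614 RPM in SE-BDEV 1, 2 and 3, the same order of libraries as miR-26a-5p. The ratio of miR-26a-5p to miR-126a-3p was between 4.48 and 4.93 in all 6 libraries. The ratio of miR-26b-5p to miR-126a-5p was between 3.71 and 4.42. Both miR-126a arms were picked as the nearest profiles over these same libraries. Their like order, steady ratios and shared direction follow from that choice and are no further result. Of the endothelial marker list, which holds only these 2 arms, both had higher values in SE-BDEV and 0 passed, with 1 at a limma unadjusted p under 0.05, against 8.12% of all tested (log2 differences 0.47 and 0.72, limma adjusted p = 0.438 for each). Their summed level was 2828 to 4276 RPM in CON-BDEV and 4116 to 6342 RPM in SE-BDEV. All 4 tested of the 5 microglial and leukocyte markers had higher values and 2 passed, against 57.5% higher and 0.974% called over all tested, with a summed level of 75.1 to 97.6 RPM in CON-BDEV and 309 to 482 RPM in SE-BDEV. The 2 microglial and leukocyte markers that passed, miR-155-5p and miR-142a-5p, are among the 3 miRNAs called over all tested. Of these 2, miR-155-5p had group means of 34.7 RPM (controls) and 222 RPM (after status epilepticus), so it weighs heavily in the sum. Both marker lists were drawn up when earlier results of these data were already known, so their counts are no test of a cell type. The part of either cell type in the miR-26 values was not tested.

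**Figure D5:**
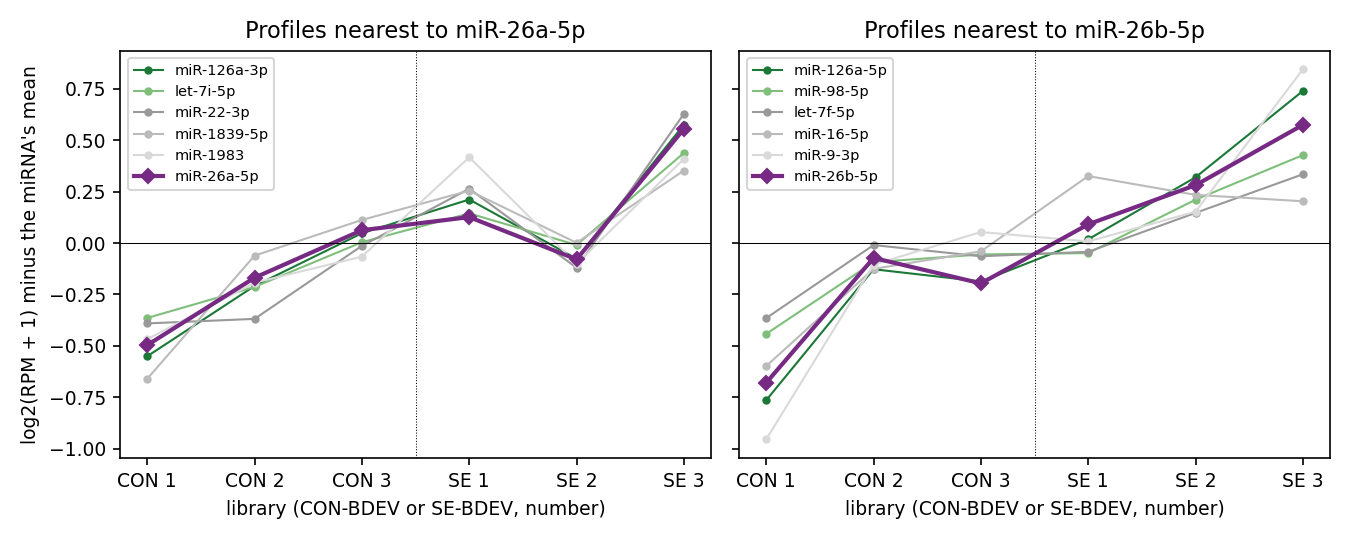
Level of miR-26a-5p (left) and miR-26b-5p (right) with the 5 nearest profiles of each, as log2(RPM + 1) minus the miRNA's own mean (vertical axis) in the 6 libraries (horizontal axis). Lines only join the points of 1 miRNA. miR-126a-3p lies at a distance of 0.0457 from miR-26a-5p and miR-126a-5p at 0.0859 from miR-26b-5p.

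Because the host genes encode phosphatases that work with REST, miRNAs tied to the REST network were described beside miR-26. Of the 13 listed, 12 were tested and 0 passed in either direction, with 1, higher, at a limma unadjusted p under 0.05, against 8.12% of all tested. Values were higher in SE-BDEV for 11 and lower for 1, against 57.5% higher over all tested, with a median log2 difference of 0.49 beside 0.0606 over the 308 tested. The listed rows are not independent of each other. miR-9, miR-132 and miR-212 each enter with both arms, and miR-29a, miR-29b and miR-29c belong to the same family. The list was also chosen with earlier results of these data known, so the counts are no test of the network. The groups did not overlap for 1 of the 12, higher in SE-BDEV, against 10.7% of all tested. miR-124-3p, which represses Ctdsp1 in neurons, had the highest level and was the 1 with a lower value (8213 ± 800 and 8061 ± 1444 RPM, SD, n = 3, log2 difference -0.0381). miR-29a-3p followed at 5582 ± 77.8 and 6936 ± 2104 RPM (log2 difference 0.26). miR-9-5p, which targets REST itself, was at 3987 ± 392 and 5610 ± 2528 RPM (0.41), and miR-9-3p, which targets its cofactor, at 1743 ± 580 and 2747 ± 904 RPM (0.67). Of the list, miR-132-5p had the smallest limma adjusted p, 0.237, at a log2 difference of 1.06.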

How the data were processed

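Small RNA of 3 CON-BDEV and 3 SE-BDEV libraries was analysed. miRNeasy Micro columns with DNase gave the RNA and QIAseq miRNA kits the libraries, per the labels' protocols. The authors deposited RPM values for 1926 miRNA rows, and a table of their comparison with a mean normalized signal, log2 fold changes with standard errors, a test score and p-values. DESeq2 and mm9 appear, without versions, in the submitters' processing notes. Neither the aligner, the counting tool nor any use of molecular identifiers is given in the sources used here.

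All RPM values of a library were whole multiples, to a tolerance of 0.001, of 1 step, taken as 1 read. The smallest listed value was 2 reads, so the values were not used as a count table. limma 3.58.1 (R 4.3.3, statmod 1.5.0) was fitted on log2(RPM + 1) with a trended, robust empirical Bayes prior, and checked on simulated data. Ratios within a library were tested by exact permutation. Sequences came from RefSeq tables. The members, the lists and the rules for named miRNAs (nearest profiles, neighbours in rank, REST list, largest families) were chosen with earlier results of these data known. Named after their values were seen were miR-335-5p, miR-382-5p, miR-132-5p and the called miRNAs.

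The groups share replicate numbers. Correlations of deviations from the group means were 0.216, 0.202 and 0.462 for the pairs numbered 1, 2 and 3, above the bound of 0.1, and -0.064, -0.061 and -0.081 without miR-24-3p. The correlations above the bound thus rested on 1 miRNA. Without it no pairing was seen, and the labels state none. Other pseudocounts, filters, scalings, the block and runs without single libraries were the alternatives.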

Additional observations from a re-analysis of the deposited data

How the results depend on the processing

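Under all 13 alternatives that tested them, miR-26a-5p (log2 difference 0.22 to 0.54, limma adjusted p from 0.153 to 0.844) and miR-26b-5p (0.45 to 0.75, adjusted p from 0.224 to 0.783) kept a higher value in SE-BDEV and did not pass. Leaving out 1 library gave these same ranges of the log2 difference. With the replicate block the limma adjusted p was 0.153 for miR-26a-5p and 0.224 for miR-26b-5p, and the block changed the call of no member. For the ratios no call was possible with or without the block, as the smallest possible permutation p was 0.1 even without it. The count of called miRNAs, 3 over all tested, was 10 with the replicate block, and 2 to 8 without 1 library, the 8 without CON-BDEV 2. The cause was not tested. The difference of the log2 ratio of the guide arms ranged from -0.34 to -0.11 over 9 alternatives. The 5p to 3p differences ranged from 0.25 to 1.03 for miR-26b and from 0.24 to 1.11 for miR-26a, and none of the 3 ratios changed direction. The family took 8.80% in CON-BDEV and 10.9% in SE-BDEV of the reads outside let-7, which follows from the smaller total. The 3p arms were at 26 reads or fewer per library in sum, which limits what can be read from them. The planned edgeR and DESeq2 fits were not run, since the deposited values list no single reads.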
